A study of Homo sapiens with 18 samples.

Results

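The oxidant response of IMR90 cells that had been pre-incubated with fragmented naked mole-rat hyaluronan was measured by comparing 3 libraries of fNSF-HA cells exposed to tert-butyl hydroperoxide (tBHP) with 3 libraries of fNSF-HA cells that were not, which are 6 of the 18 libraries of the series and were taken by their labels. IMR90 is a widely distributed strain of normal human lung fibroblasts that has not been immortalized. HA was purified from medium of naked mole-rat skin fibroblasts, and fNSF-HA is the fragmented form whereas cNSF-HA is the control, unfragmented form. All 6 libraries came from cells kept for 6 h with 20 μg/ml fNSF-HA. The fNSF group was harvested at that point. For the fNSF_tBHP group, the paper states that the hyaluronan was taken away before 1 h with 200 μM tBHP. Those cells were harvested 6 h after tBHP was first added. The comparison therefore holds the oxidant, the withdrawal of hyaluronan and the later harvest together, and their parts cannot be told apart. PBS and cNSF groups of the same layout, each with 3 replicates, were used to set the response beside that of the other pre-incubations.

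A cell meets an organic peroxide such as tBHP with several programmes. Oxidized KEAP1 lets the transcription factor NRF2 raise enzymes that make glutathione and reduce quinones, DNA damage stabilizes p53, and kinases that phosphorylate eIF2α slow protein synthesis while raising the factor ATF4, the integrated stress response. Misfolded proteins in the endoplasmic reticulum start the unfolded protein response, and p53 together with the inhibitor p21 halts division by keeping RB-family complexes on cell-cycle promoters.

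The 6 libraries held between 20261103 and 26287660 reads on genes. All 17 lung fibroblast markers passed the filter on low values. COL1A1, COL1A2 and VIM were the most abundant and TBX4 and S100A4 the lowest. With tBHP 5 of the 17 fell (29.4%, against 22.7% of all genes tested) and 2 rose (11.8%, against 19.2%). The epithelial genes KRT5, SFTPC and NKX2-1 and the endothelial gene CDH5 were listed at 0 in all 6. Of 11 endothelial markers, 4 passed the filter on low values. Of these, VWF, ROBO4 and TIE1 rose (75%, against 19.2% of all genes tested) and TEK fell (25%, against 22.7%). The risen count was 2 without fNSF_tBHP replicate 1 and 1 without replicate 3. The summed level of the 11 was 1712 to 1849 normalized counts without and 1517 to 1574 with tBHP, mostly from TEK and TIE1. Of 15 epithelial markers, 5 passed the filter on low values and 3 of these fell (60%, against 22.7% of all genes tested), KRT18, KRT19 and CLDN4. Their fallen count was 2 without fNSF_tBHP replicate 1 or replicate 2, and 4 without replicate 3. The summed level of the 15 was 3611 to 3687 normalized counts without and 1964 to 3134 with tBHP, and the part of neither list in the results was tested. The 3 libraries with tBHP differed more from each other than the 3 without: the median SD within the group was 0.221 on the log2 scale with tBHP and 0.0632 without. For the 10% of genes with the highest GC content of their transcript, the median deviation from the group mean was 0.081 in fNSF_tBHP replicate 1, -0.52 in replicate 2 and 0.44 in replicate 3. GC content and transcript length together followed 54.3% of the variance within the fNSF_tBHP group and 1.46% of that within the fNSF group. Values of single libraries are given in the order of replicates 1, 2 and 3.

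**Figure D1:**
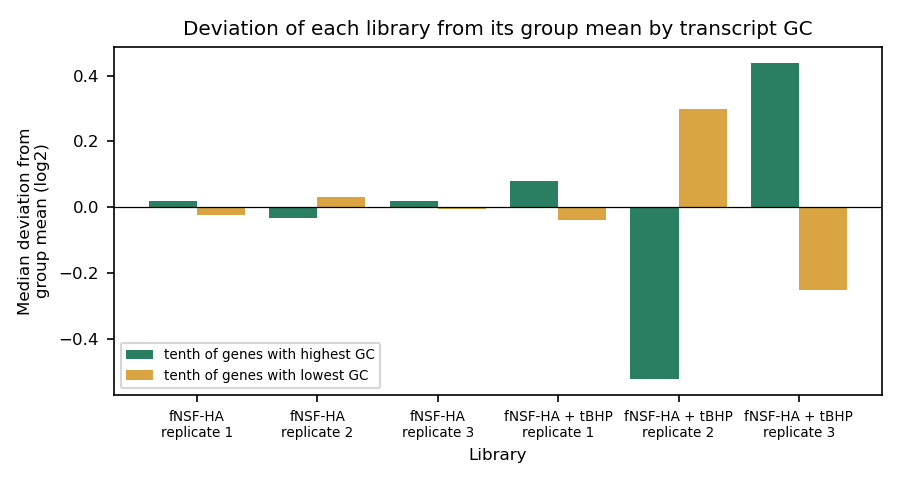
Median deviation from the mean of its own group (y axis, log2 of normalized count + 1) of the genes with the highest and lowest transcript GC content in each of the 6 fNSF-HA libraries. The libraries without tBHP sit near 0, and of those with tBHP replicate 2 was at -0.52 and replicate 3 at 0.44 for the high-GC genes.

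Of 56269 genes, the 13686 with a mean of at least 10 normalized counts over the 18 libraries were tested with limma on log2(normalized count + 1), a scale that understates the change of low genes. With tBHP, 2631 genes (19.2%) rose and 3102 (22.7%) fell at an adjusted p under 0.05, 5733 in all (41.9%), and the median log2 change over all genes tested was -0.03. A change of at least 2-fold was reached by 422 of the risen genes (3.08% of those tested) and 435 of the fallen genes (3.18%). The 3 libraries with tBHP did not overlap the 3 without in 6667 genes (48.7%). A normalized count is a share of its library, so less RNA per cell and fewer cells cannot be told apart from it. Without fNSF_tBHP replicate 2, the counts were 3340 risen and 3590 fallen genes.

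The p53 targets were among the genes that rose most. Of 40 targets, all tested, 35 rose and 2 fell, against 19.2% and 22.7% of all genes, and their median log2 change was 0.92. The members were chosen with results of these data known, so the count describes the list. GDF15, a secreted stress cytokine, had 32.4, 37.4 and 29.8 normalized counts in the fNSF libraries and 3040.2, 1578 and 4935 in the fNSF_tBHP libraries. It had the largest log2 change of all genes tested, 6.40 (SE 0.28, adjusted p = 5.62e-12). The groups were far apart in every library, although replicate 2 was the lowest and replicate 3 the highest of those with tBHP, and with the GC and length trend removed the change was 6.31.

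CDKN1A encodes p21, the CDK inhibitor through which p53 halts the cycle. It went from 5492, 5099 and 5189.6 normalized counts to 43042, 34012 and 47721, a log2 change of 2.97 (SE 0.098, adjusted p = 2.14e-13). All libraries with tBHP were far above all without, with replicate 2 lowest. MDM2, the ubiquitin ligase that returns p53 to its resting level, went from 1862, 1895 and 1835 to 5322, 7151 and 4506, and its log2 change was 1.58 (SE 0.12, adjusted p = 1.35e-08). Here replicate 2 was the highest of the 3, the opposite order to CDKN1A.

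Other p53 targets that rose serve growth arrest, repair and death. BTG2, an anti-proliferative gene, had 96.1, 90.7 and 105 normalized counts without and 851, 731 and 837 with tBHP, a log2 change of 3.04 (SE 0.13, adjusted p = 4.04e-12). SESN2, which restrains mTORC1, rose by 2.96 (SE 0.11, adjusted p = 1.47e-12) on the log2 scale. Of the pro-death members, BBC3 (PUMA) went from 71.6, 73.9 and 63.4 to 467, 334 and 704, a log2 change of 2.77 (SE 0.20, adjusted p = 6.88e-09), and PMAIP1 (NOXA) changed by 1.45 (SE 0.13, adjusted p = 9.3e-08). The damage-recognition genes DDB2 and XPC rose by 1.36 and 0.94 on the log2 scale. PLK2 and PERP were the 2 targets that fell, by 0.26 and 0.18 on the log2 scale. The call of PERP was lost without fNSF_tBHP replicate 1 (adjusted p = 0.139) or replicate 3 (0.113) and without any of the fNSF libraries, and its change was -0.01 with the GC and length trend removed.

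**Figure D2:**
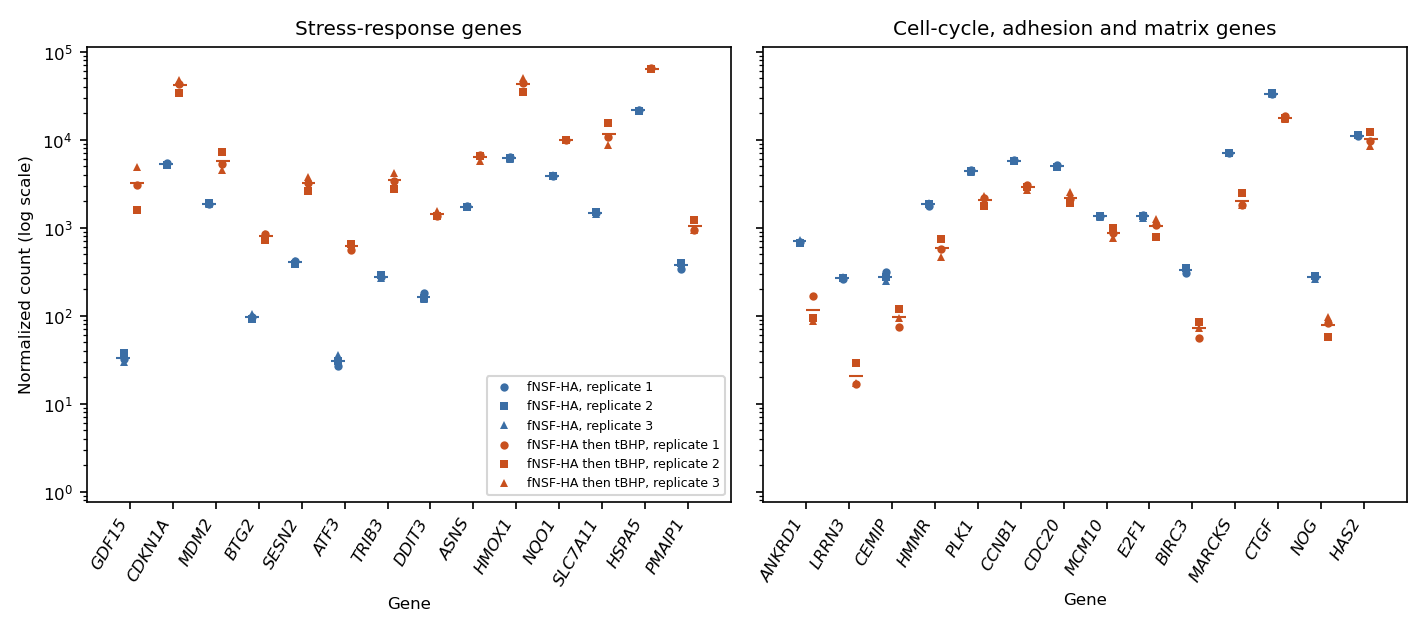
Normalized count (y axis, log scale) of 28 genes in the 3 fNSF libraries (blue) and the 3 fNSF_tBHP libraries (orange), with a bar at each mean. GDF15 moved from at most 37.4 to at least 1578, and the HAS2 libraries overlap.

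NRF2 targets rose almost without exception. Of 36 targets tested, 35 rose (97.2%, against 19.2% of all genes) and 0 fell, and the median log2 change of the list was 1.13. Without fNSF_tBHP replicate 2, 35 rose and 1 fell, and without replicate 3, 33 rose and 0 fell. HMOX1, which degrades heme, went from 6348, 6208 and 6052 normalized counts to 44365, 35061 and 50107, a log2 change of 2.78 (SE 0.10, adjusted p = 6.37e-13). Every library with tBHP was more than 5 times any library without. NQO1, a quinone reductase, held 3864, 3890.4 and 3922 normalized counts without and 9877, 9828 and 9873 with tBHP, and its log2 change of 1.34 (SE 0.06, adjusted p = 8.52e-12) rested on libraries that hardly differed within groups.

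SLC7A11, the cystine carrier that feeds glutathione synthesis, went from 1463, 1516 and 1426 to 10587, 15306 and 8585 normalized counts and changed by 2.93 (SE 0.15, adjusted p = 7.24e-11) on the log2 scale. GCLM and GCLC, the subunits of the enzyme that makes the precursor of glutathione, rose by 1.16 and 0.39 on the log2 scale. TXNRD1, thioredoxin reductase, rose by 1.65 (SE 0.077, adjusted p = 1.47e-11). AKR1C1, an aldo-keto reductase, went from 82.4, 79.8 and 71.7 to 994, 1057 and 965 normalized counts, a log2 change of 3.67 (SE 0.13, adjusted p = 6.37e-13), with the reservation that near-identical AKR1C copies share reads. The ferritin chains FTL and FTH1, which store iron, rose by 1.58 and 1.48. NFE2L2, the gene of NRF2, rose by 0.86 (SE 0.077, adjusted p = 9.3e-08). SRXN1, which reduces peroxiredoxins, was low, with 11.8, 7.88 and 8.39 normalized counts without and 13.2, 17.0 and 23.9 with tBHP.

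Of 20 other antioxidant enzymes, among them dismutases, peroxidases, glutaredoxins and methionine sulfoxide reductases, 2 rose and 4 fell, shares near or below the 19.2% and 22.7% of all genes, and the median log2 change of the list was 0.08. SOD1, the cytosolic superoxide dismutase, rose by 0.73 (SE 0.083, adjusted p = 1.73e-06), whereas SOD2, its mitochondrial counterpart, fell by 0.40 on the log2 scale (SE 0.087, adjusted p = 0.00129). GPX3, a secreted glutathione peroxidase, rose by 1.42. The other members that fell were PRDX3, GPX8 and MSRB3. Catalase (CAT) changed by 0.07 (SE 0.07, adjusted p = 0.47) and did not pass. The risen count was 7 without fNSF_tBHP replicate 2 and 8 with TMM scaling.

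The integrated stress response list, ATF4 with its targets, had the largest median change of the lists, 1.37 on the log2 scale. Of 37 genes tested, 33 rose (89.2%, against 19.2% of all genes) and 1, ALDH18A1 of proline synthesis, fell, with 2 fallen without fNSF_tBHP replicate 2. ATF4 mRNA went from 5648, 5581 and 5339 to 14535, 13331 and 15456 normalized counts, a log2 change of 1.38 (SE 0.072, adjusted p = 7.24e-11). ATF3, a stress-induced bZIP factor, went from 26.5, 30.5 and 35.4 to 561, 648 and 659, a log2 change of 4.30 (SE 0.13, adjusted p = 1.46e-13). The groups of ATF3 libraries were far apart, and those with tBHP differed little from each other. DDIT3, which encodes the pro-death factor CHOP, went from 179, 157 and 153 to 1356, 1370.1 and 1528, a log2 change of 3.11 (SE 0.13, adjusted p = 3.33e-12).

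TRIB3, a pseudokinase that restrains AKT and ATF4, rose from 275, 289 and 268 to 3426, 2764 and 4135 normalized counts, or 3.61 (SE 0.12, adjusted p = 2.14e-13) on the log2 scale. Enzymes of amino acid supply were among the risen genes. ASNS, asparagine synthetase, had 1738, 1730.4 and 1713 normalized counts without and 6707, 6541 and 5740.2 with tBHP. PSAT1, of serine synthesis, rose by 1.55 (SE 0.08, adjusted p = 5.99e-11). CHAC1, which degrades glutathione, rose by 2.16 (SE 0.16, adjusted p = 9.51e-09). DDIT4, an inhibitor of mTORC1, rose by 3.26 (SE 0.12, adjusted p = 9.15e-13).

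Of 22 genes of the unfolded protein response (UPR) tested, 17 rose (77.3%, against 19.2% of all genes) and 0 fell, and the median log2 change was 0.51. HSPA5, the chaperone BiP, had 21604, 21330.1 and 21506 normalized counts without and 65770.3, 62719 and 63214 with tBHP, a log2 change of 1.57 (SE 0.048, adjusted p = 1.46e-13). The libraries within each group differed little and the groups were well apart. XBP1, the factor spliced by IRE1, had 2211, 2158 and 2052 and 5187, 5199.6 and 5205, a log2 change of 1.28 (SE 0.06, adjusted p = 1.36e-11). HERPUD1, a component of ER-associated degradation, rose by 1.41, CALR by 0.51 and HSP90B1 by 0.33 on the log2 scale.

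Promoters of UPR members that hold an ER stress element, the sequence bound by ATF6 with NF-Y, are shown as examples. The list was made of known UPR genes, so the share of it with the element describes the list and tests nothing. The 250 bases upstream of the RefSeq start (GRCh38.p14) were searched on both strands for CCAAT followed by any 9 bases and CCACG, with matches in capitals. A match is a description of the letters, not of a bound site. It was found in 6 of the 21 UPR genes that had a promoter entry (28.6%) and in 22 of 27305 promoters of the table (0.0806%). The 27305 are not limited to the genes tested. The 6 were HSPA5, HSP90B1, CALR, CANX, XBP1 and CRELD2. CRELD2 changed by 0.24 (SE 0.18, adjusted p = 0.294) and did not pass, and the others rose. The sequences of HSPA5 (chr9:125241344-125241593, minus strand), HSP90B1 (chr12:103930160-103930409, plus strand), CALR (chr19:12938359-12938608, plus strand) and XBP1 (chr22:28800570-28800819, minus strand) run 5′ to 3′ toward the start.
HSPA5: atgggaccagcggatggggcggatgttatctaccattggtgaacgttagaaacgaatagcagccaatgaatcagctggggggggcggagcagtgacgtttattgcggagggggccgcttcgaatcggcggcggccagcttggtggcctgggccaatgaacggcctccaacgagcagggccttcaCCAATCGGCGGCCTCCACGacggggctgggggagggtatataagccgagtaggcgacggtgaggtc
HSP90B1: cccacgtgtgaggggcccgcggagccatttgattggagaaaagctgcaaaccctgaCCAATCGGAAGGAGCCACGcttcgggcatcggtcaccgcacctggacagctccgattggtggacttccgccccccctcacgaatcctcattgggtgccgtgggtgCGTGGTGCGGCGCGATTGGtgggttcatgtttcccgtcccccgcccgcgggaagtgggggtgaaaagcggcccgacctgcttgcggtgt
CALR: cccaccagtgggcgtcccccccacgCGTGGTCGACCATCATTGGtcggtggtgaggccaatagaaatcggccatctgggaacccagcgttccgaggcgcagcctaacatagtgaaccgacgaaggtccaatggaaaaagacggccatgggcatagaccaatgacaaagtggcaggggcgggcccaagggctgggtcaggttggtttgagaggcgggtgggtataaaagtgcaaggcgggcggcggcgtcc
XBP1: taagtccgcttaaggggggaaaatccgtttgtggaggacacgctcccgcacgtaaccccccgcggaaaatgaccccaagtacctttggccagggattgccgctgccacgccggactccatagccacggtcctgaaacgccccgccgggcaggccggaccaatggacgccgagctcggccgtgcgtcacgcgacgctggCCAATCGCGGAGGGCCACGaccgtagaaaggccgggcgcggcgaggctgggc

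In HSPA5 the element began 66 bases before the start, in XBP1 52 and in CALR 225 bases before it. HSP90B1 had 2 copies, beginning 194 and 89 bases upstream. For the ATF4 targets, the letters TGATGNAA of the C/EBP-ATF element stood in 3.19% of all promoters. Only 28 of the 37 genes of that list had a promoter entry, too few to read a share of the list, and 4 of the 28 held the letters while 24 did not. ASNS (chr7:97872409-97872658, minus strand) and CHAC1 (chr15:40953221-40953470, plus strand), which rose by 1.87 and 2.16 on the log2 scale and are shown as examples of these 4, each held 1 copy, beginning 68 and 209 bases upstream.
ASNS: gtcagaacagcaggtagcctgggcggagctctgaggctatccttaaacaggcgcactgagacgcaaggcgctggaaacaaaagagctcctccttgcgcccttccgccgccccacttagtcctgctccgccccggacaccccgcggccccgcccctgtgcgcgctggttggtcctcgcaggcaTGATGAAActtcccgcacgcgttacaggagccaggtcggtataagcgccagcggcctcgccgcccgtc
CHAC1: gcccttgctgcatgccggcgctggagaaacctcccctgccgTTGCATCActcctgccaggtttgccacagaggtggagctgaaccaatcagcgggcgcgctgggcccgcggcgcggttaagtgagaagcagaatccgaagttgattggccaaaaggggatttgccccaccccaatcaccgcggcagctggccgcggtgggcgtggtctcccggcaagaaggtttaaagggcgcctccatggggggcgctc

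Of 23 heat shock genes tested, 16 rose (69.6%, against 19.2% of all genes) and 3 fell (13.0%, against 22.7%), or 1 without fNSF_tBHP replicate 3, and their median log2 change was 0.44. HSPB8, a small heat shock protein that works with BAG3, went from 493, 467 and 429.5 to 2039.7, 2047 and 2194 normalized counts, a log2 change of 2.17 (SE 0.079, adjusted p = 6.71e-13). CRYAB, another small heat shock protein, rose by 1.24. HSPA8, the constitutive HSC70, went the other way, from 65024, 64410.0 and 64598 to 51929, 52699 and 49020.4, a log2 change of -0.34 (SE 0.052, adjusted p = 4.71e-05). HSPA1A, whose reads can be lost to a near-identical copy, had at most 10.5 normalized counts in these 6 libraries and was below the filter. Among metallothioneins, which bind zinc and copper, MT1G had 0.981, 1.97 and 2.8 normalized counts without and 170.1, 117 and 228 with tBHP. MT1X rose by 1.68 (SE 0.15, adjusted p = 9.11e-08), and MT2A changed by -0.16 (SE 0.19, adjusted p = 0.523) without passing. The metallothionein copies share sequence, so the split of reads among them is uncertain.

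**Figure D3:**
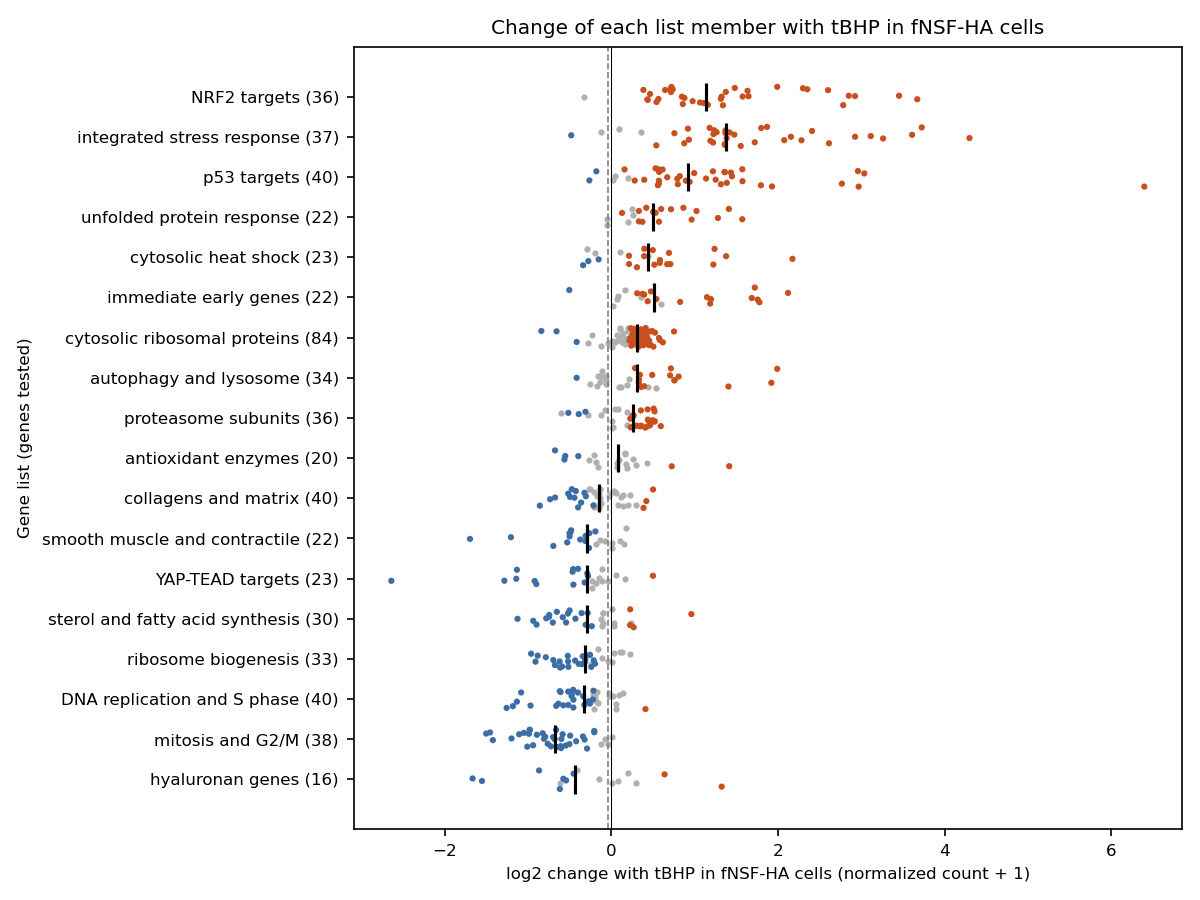
log2 change with tBHP in fNSF-HA cells (x axis) of each gene tested in 18 lists (y axis, with the number of genes), with risen genes in orange, fallen genes in blue, others in grey, a black bar at each list's median and a dashed line at the median of all genes, -0.03. The medians of the NRF2, p53 and integrated stress response lists lie at 1.13, 0.92 and 1.37, and that of mitosis and G2/M at -0.67.

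Of 13 BCL2-family genes tested, 7 rose (53.8%, against 19.2% of all genes) and 1 fell (7.69%, against 22.7%), or 3 without fNSF_tBHP replicate 3, with a median of 0.29. BAX, BBC3 and PMAIP1 are also members of the p53 list, so the counts of these lists are not separate. BMF, a pro-death member released from the cytoskeleton, rose by 1.59 and BCL2L1, which encodes the protective BCL-XL, by 0.72. BCL2, the founding protective member, went from 91.2, 98.5 and 93.2 to 48.2, 52.1 and 42.1 normalized counts, a log2 change of -0.98 (SE 0.20, adjusted p = 0.000601). TXNIP, which binds and inhibits thioredoxin, had 1232, 1184 and 1303 normalized counts without and 2050.2, 2312 and 2032 with tBHP, a log2 change of 0.78 (SE 0.079, adjusted p = 3.73e-07).

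Protein turnover was covered by autophagy and proteasome genes. Of 34 autophagy and lysosome genes, 17 did not pass, 16 rose (47.1%, against 19.2% of all genes) and 1, ATG7, fell, while 4 fell without fNSF_tBHP replicate 2 and 2 without replicate 3. SQSTM1, the receptor p62 that also binds KEAP1, went from 4554, 4568 and 4614 to 18833, 14601 and 21978 normalized counts, a log2 change of 1.99 (SE 0.10, adjusted p = 7.73e-11). GABARAPL1, which coats autophagosomes, rose by 1.92 (SE 0.071, adjusted p = 8.47e-13). Of 36 proteasome subunits, 21 rose (58.3%, against 19.2%), 12 did not pass and 3 fell (8.33%, against 22.7%), or 1 without fNSF_tBHP replicate 1, and the median log2 change was 0.26. The largest rise among subunits was that of PSMB7, 0.59 (SE 0.078, adjusted p = 7.79e-06).

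Immediate early genes are known to respond to MAP kinases within minutes. Of 22 tested, 15 rose at this single time point (68.2%, against 19.2% of all genes), 6 did not pass and 1, SRF, fell, and the median log2 change of the list was 0.51. FOS had 21.6, 26.6 and 27.0 normalized counts without and 94.7, 63.8 and 100.2 with tBHP, a log2 change of 1.72 (SE 0.20, adjusted p = 2.32e-06). FOSB rose by 2.12 (SE 0.15, adjusted p = 2.78e-09) and EGR1 by 0.31 (SE 0.081, adjusted p = 0.00457). JUNB had 911, 871 and 975 and 1010.2, 515 and 1731 normalized counts, so the tBHP libraries lay on both sides of the others, and its change of 0.07 (SE 0.26, adjusted p = 0.846) did not pass. The risen count of the list was 20 without fNSF_tBHP replicate 2 and 12 without replicate 3. Of 13 MAP kinase phosphatases and Sprouty-family inhibitors, which feed back on these kinases, 6 rose (46.2%, against 19.2% of all genes), 2 fell (15.4%, against 22.7%) and 5 did not pass. The phosphatase DUSP5 and the inhibitor SPRY4 rose by 1.22 and 1.14, whereas SPRED1 and DUSP7 fell by 0.45 and 0.34. Among the EGF-family ligands, AREG went from 27.5, 24.6 and 26.1 to 138, 147 and 128 normalized counts, a log2 change of 2.35 (SE 0.16, adjusted p = 3.45e-09).

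Of 21 inflammatory and NF-kB genes tested, 9 rose and 7 fell, which is 42.9% and 33.3%, against 19.2% and 22.7% of all genes. The cytokine IL11 went from 4188, 4114 and 4085 to 10784, 9173 and 11253 normalized counts, a log2 change of 1.33 (SE 0.086, adjusted p = 1.33e-09). IL6 rose by 1.15 (SE 0.089, adjusted p = 1.3e-08) and CXCL8, from at most 17.7 normalized counts, by 2.14 (SE 0.31, adjusted p = 2.3e-05). BIRC3, an NF-kB target that inhibits apoptosis, fell from 304, 344 and 348 to 56.1, 85.1 and 72.9, a log2 change of -2.22 (SE 0.17, adjusted p = 8.66e-09). TNFAIP3, the NF-kB feedback inhibitor A20, fell by 1.26 on the log2 scale. Every BIRC3 library with tBHP was below every library without.

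Of 30 glycolysis and hypoxia-response genes, 15 rose (50%, against 19.2% of all genes) and 4 fell (13.3%, against 22.7%). NDRG1, a stress and hypoxia gene, went from 871, 905 and 877 to 6339, 5813 and 6904 normalized counts, a log2 change of 2.84 (SE 0.085, adjusted p = 1.46e-13). VEGFA, the angiogenic growth factor, rose by 1.24 (SE 0.062, adjusted p = 3.53e-11). ADM, which encodes adrenomedullin and is also a hypoxia target, fell by 0.81 on the log2 scale, so members of the list moved apart.

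Of 29 TGF-beta and BMP genes, 10 rose (34.5%, against 19.2% of all genes) and 8 fell (27.6%, near the 22.7% of all genes). BMP6, a BMP ligand, went from 35.3, 26.6 and 35.4 to 201, 228 and 182 normalized counts, a log2 change of 2.62 (SE 0.20, adjusted p = 1.14e-08). NOG, the BMP antagonist noggin, went from 276, 284 and 257 to 81.6, 57.4 and 96.8, a log2 change of -1.81 (SE 0.17, adjusted p = 1.63e-07). TGFB3 rose by 1.22, and TGFB2, another ligand of the same receptors, fell by 1.60. Of 19 Notch and Wnt genes, 10 fell (52.6%, against 22.7% of all genes) and 3 rose (15.8%, against 19.2%), with the Wnt receptor FZD8 changing by -1.01 (SE 0.15, adjusted p = 2.29e-05).

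The mitotic programme fell as a block. Of 38 mitosis and G2/M genes, all tested, 34 fell (89.5%, against 22.7% of all genes) and 0 rose, and the median log2 change of the list was -0.67. The count of fallen genes was 34 without fNSF_tBHP replicate 2 and 33 without replicate 3. CCNB1, the mitotic cyclin, went from 5806, 5759 and 5659 to 3023, 2863 and 2689 normalized counts, a log2 change of -1.01 (SE 0.062, adjusted p = 6.93e-10). PLK1, a mitotic kinase, went from 4561, 4364 and 4235 to 2151, 1742 and 2258, a log2 change of -1.1 (SE 0.078, adjusted p = 3.94e-09). The largest fall in the list was that of ASPM, a spindle-pole protein, -1.5 (SE 0.17, adjusted p = 1.12e-06). MKI67, which encodes the Ki-67 antigen, fell by 0.68 on the log2 scale.

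The CHR element, the letters TTTGAA to which repressive and activating cell-cycle complexes bind, was searched in the same way in the promoters of these genes. It stood in 17 of the 32 G2/M promoters of the table (53.1%) and in 13.6% of all promoters. CCNB2 (chr15:59104896-59105145, plus strand), PLK1 (chr16:23678639-23678888, plus strand) and CDC20 (chr1:43358731-43358980, plus strand) are shown because each had a copy close to its start, 29, 29 and 65 bases upstream. CDC20 held another copy, beginning 178 bases upstream. The log2 changes of CCNB2, PLK1 and CDC20 were -0.42, -1.1 and -1.20, and all passed the test.
CCNB2: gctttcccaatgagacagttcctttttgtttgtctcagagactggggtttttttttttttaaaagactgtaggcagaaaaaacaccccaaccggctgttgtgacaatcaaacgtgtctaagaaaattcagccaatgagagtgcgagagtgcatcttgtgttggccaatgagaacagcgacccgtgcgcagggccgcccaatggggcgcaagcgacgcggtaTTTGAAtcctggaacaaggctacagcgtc
PLK1: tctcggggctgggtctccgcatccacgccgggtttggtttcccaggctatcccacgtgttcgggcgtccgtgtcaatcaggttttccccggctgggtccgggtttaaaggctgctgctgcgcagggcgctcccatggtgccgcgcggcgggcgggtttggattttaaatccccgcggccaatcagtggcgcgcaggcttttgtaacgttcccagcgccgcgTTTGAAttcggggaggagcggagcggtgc
CDC20: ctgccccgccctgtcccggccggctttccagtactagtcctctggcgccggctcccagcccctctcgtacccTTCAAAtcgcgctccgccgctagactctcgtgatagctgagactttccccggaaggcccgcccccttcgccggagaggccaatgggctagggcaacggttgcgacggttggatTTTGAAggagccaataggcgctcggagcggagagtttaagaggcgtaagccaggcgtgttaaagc

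Many DNA replication genes fell too. Of 40 tested, 25 fell (62.5%, against 22.7% of all genes) and 1, PCNA, rose, or 2 without fNSF_tBHP replicate 2, and the median log2 change of the list was -0.33. CCNE2, the cyclin that opens S phase, went from 639, 754 and 705 to 251, 406 and 244 normalized counts, a log2 change of -1.26 (SE 0.16, adjusted p = 4.13e-06). POLE2, a subunit of a replicative polymerase, fell by 1.18. PCNA, the polymerase clamp and also a p53 target, had 3868, 3887 and 3758 and 5456, 4589 and 5307 normalized counts, a log2 change of 0.41 (SE 0.071, adjusted p = 0.000148). The E2F letters TTTNGCGC stood in 8 of the 35 promoters of these genes in the table (22.9%) and in 1.54% of all promoters. Of the cyclins and inhibitors of G1, CCND1 fell by 0.61, and E2F7, a repressor of E2F targets that p53 induces, rose by 1.16 (SE 0.12, adjusted p = 6.89e-07). Among double-strand break and Fanconi repair genes, 18 of 34 fell (52.9%, against 22.7% of all genes) and 3 rose (8.82%, against 19.2%), with ATR, the replication-stress kinase, changing by -1.04 (SE 0.11, adjusted p = 5.52e-07).

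Of 33 ribosome biogenesis factors, 23 fell (69.7%, against 22.7% of all genes) and 0 rose, or 1 without fNSF_tBHP replicate 2, and the median log2 change of the list was -0.32. PNO1, an assembly factor of the small subunit, went from 1202, 1288 and 1357 to 688, 679.7 and 677 normalized counts, a log2 change of -0.91 (SE 0.078, adjusted p = 5.31e-08). Of 84 cytosolic ribosomal proteins, 52 rose (61.9%, against 19.2%) and 3 fell (3.57%, against 22.7%), with a median of 0.31. Examples were RPS27 at 0.75 and RPL12 at 0.62 on the log2 scale. The risen count was 73 without fNSF_tBHP replicate 2 and 48 without replicate 3, and the median was 0.37 with TMM scaling and 0.23 with the GC and length trend removed. Mitochondrial ribosomal proteins had shares near those of all genes, with 14 of 78 (17.9%) rising, 17 (21.8%) falling and a median of -0.05 that became 0.01 with TMM scaling. Without fNSF_tBHP replicate 1 the risen count was 9.

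The 13 mRNAs of the mitochondrial genome did not move as a unit. MT-ND2, a subunit of complex I, went from 22761, 23236 and 24078 to 39936, 44555 and 35792 normalized counts, a log2 change of 0.77 (SE 0.071, adjusted p = 1.16e-07), and MT-ND1 rose by 0.76. MT-ND6, the only mRNA of the set that is encoded on the light strand, went from 2031, 1909.7 and 2015 to 593, 623 and 492, a log2 change of -1.81 (SE 0.12, adjusted p = 1.18e-09). No library with tBHP reached any library without for this gene. The kit does not keep the strand of the RNA, so reads of MT-ND6 and of RNA antisense to it cannot be told apart. In all, 5 of the 13 rose and 5 fell (38.5% each, against 19.2% and 22.7% of all genes), or 3 without fNSF_tBHP replicate 3.

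Hyaluronan genes are of interest because the cells had been given hyaluronan. The list had 23 members, of which 16 were tested, 2 rose (12.5%, against 19.2% of all genes) and 7 fell (43.8%, against 22.7%). With the GC and length trend removed 4 rose and 7 fell, and in edgeR 4 rose and 5 fell. In PBS cells, which had been given no hyaluronan, 2 of the same genes rose and 8 fell, and in cNSF-HA cells 3 and 8. The median log2 change was -0.43 with fNSF-HA, -0.51 with PBS and -0.36 with cNSF-HA. HAS2, the main hyaluronan synthase of fibroblasts, had 10931, 11301 and 11172 normalized counts without and 9719, 12113 and 8541 with tBHP. The groups overlapped, and the change of -0.15 (SE 0.11, adjusted p = 0.278) did not pass. With the GC and length trend removed the sign turned, to 0.13 with an adjusted p of 0.017. UGDH, which makes the UDP-glucuronate from which hyaluronan is built, rose from 2947, 2896 and 2903 to 7149, 8628 and 6323, a log2 change of 1.33 (SE 0.088, adjusted p = 1.76e-09). CD44, the main receptor, had 33841, 33915 and 33856 and 34993, 39148 and 33776 normalized counts and a change of 0.08 (SE 0.059, adjusted p = 0.269).

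The hyaluronan-degrading genes CEMIP and HYAL2 fell. CEMIP had 309, 274 and 249.7 and 73.7, 118 and 94.5 normalized counts, a log2 change of -1.55 (SE 0.23, adjusted p = 2.92e-05), and HYAL2 changed by -0.87 (SE 0.17, adjusted p = 0.000535). HMMR, which encodes the receptor RHAMM and is also a mitotic spindle gene, went from 1777, 1867 and 1891 to 566, 741 and 468, a log2 change of -1.66 (SE 0.14, adjusted p = 3.57e-08). Layilin (LAYN) and versican (VCAN), which bind hyaluronan, fell by 0.62 and 0.57, and TNFAIP6, which links hyaluronan to other proteins, rose by 0.64 (SE 0.15, adjusted p = 0.00188). The hyaluronan receptor genes LYVE1, STAB1, TLR2 and TLR4 were below the filter.

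Of 20 matrix proteases and inhibitors, 7 rose (35%, against 19.2% of all genes) and 5 fell (25%, against 22.7%). MMP1, the interstitial collagenase, went from 2008, 2133 and 2214 to 4164, 4217 and 3977 normalized counts, a log2 change of 0.96 (SE 0.071, adjusted p = 7.55e-09). ADAMTS5, which cleaves aggrecan and versican, changed by -1.30 (SE 0.14, adjusted p = 7.6e-07). Of 457 ZNF genes, 117 rose (25.6%, against 19.2%) and 39 fell (8.53%, against 22.7%), with 69 fallen without fNSF_tBHP replicate 2. With the GC and length trend removed 194 rose and 35 fell.

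Many contractile genes and YAP-TEAD targets fell. Of 22 smooth muscle and contractile genes, 14 fell (63.6%, against 22.7% of all genes) and 0 rose, with a median of -0.29 and 3 risen genes without fNSF_tBHP replicate 2. Among them, MYLK, myosin light chain kinase, went from 4423, 4397 and 4235 to 1907, 2006 and 1759.6 normalized counts, a log2 change of -1.20 (SE 0.11, adjusted p = 9.93e-08). ACTA2 fell by 0.50. Of 23 YAP-TEAD targets, 13 fell (56.5%, against 22.7%) and 1, TEAD3, rose, with 2 risen without fNSF_tBHP replicate 2. ANKRD1, a target of that pathway, went from 688, 675 and 729.5 to 167, 93.6 and 87.7, a log2 change of -2.64 (SE 0.18, adjusted p = 1.84e-09). CTGF, a matricellular protein and target of the same pathway, went from 33174, 33667 and 32839.6 to 18619.9, 17605 and 17250.1, a log2 change of -0.90 (SE 0.05, adjusted p = 1.58e-10). Both ANKRD1 and CTGF were lower in each library with tBHP than in any without. Of 22 integrin and focal adhesion genes, 3 rose (13.6%, against 19.2% of all genes), 4 fell (18.2%, against 22.7%) and 15 did not pass, and 6 rose and 7 fell without fNSF_tBHP replicate 2.

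Of 40 collagens and matrix genes, 13 fell (32.5%, against 22.7% of all genes), 3 rose (7.5%, against 19.2%) and 24 did not pass, while 22 fell and 8 rose with the GC and length trend removed. COL1A1 had 257793, 254362 and 259877 and 238298, 160232 and 292281 normalized counts, and its change of -0.20 (SE 0.14, adjusted p = 0.275) did not pass. The risen count was 7 without fNSF_tBHP replicate 2. THBS1, an adhesive matrix glycoprotein, had a log2 change of -0.86 (SE 0.10, adjusted p = 2.34e-06), and that of LOX, which cross-links collagen, was -0.73 (SE 0.066, adjusted p = 9.19e-08). LRRN3, a leucine-rich repeat membrane protein, had the largest fall among all genes tested, from 259.9, 270.0 and 272 to 16.7, 28.7 and 17.1 normalized counts, a log2 change of -3.66 (SE 0.19, adjusted p = 5.99e-11). MARCKS, which binds actin and membrane, went from 6963, 7086 and 7039 to 1789.7, 2467 and 1796, a log2 change of -1.82 (SE 0.13, adjusted p = 5.13e-09).

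Sterol and fatty acid synthesis genes fell in 17 of 30 cases (56.7%, against 22.7% of all genes), with 4 risen (13.3%, against 19.2%) that became 1 without fNSF_tBHP replicate 3 or replicate 1. SC5D and MSMO1, late steps of the pathway, fell by 1.12 and 0.90. FASN, fatty acid synthase, had 6716, 6383 and 6617 and 3779, 2212 and 4839 normalized counts, a log2 change of -0.94 (SE 0.20, adjusted p = 0.000946). Its value in fNSF_tBHP replicate 2 was below those of the other two. Of 16 circadian genes, 4 rose (25%, against 19.2% of all genes) and 9 fell (56.2%, against 22.7%). ARNTL, which encodes BMAL1, rose by 1.40 (SE 0.083, adjusted p = 4.41e-10), and PER3, of the period family of clock genes, changed by -1.53 (SE 0.12, adjusted p = 1.96e-08).

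Whether fragmented hyaluronan altered the response was examined by testing the difference between responses. The fNSF-HA, PBS and cNSF-HA responses rest on different libraries. With PBS pre-incubation 3317 genes (24.2%) rose and 3678 (26.9%) fell, and with cNSF-HA 3285 (24%) and 3662 (26.8%). Of the 5733 genes called in fNSF-HA cells, 4785 were called in the same direction in PBS cells, which is 83.5% of the fNSF-HA calls and 68.4% of the PBS calls. The corresponding shares with cNSF-HA were 83.5% and 68.9%, and 0 genes were called in opposite directions in either comparison. Across the 13686 genes, Pearson's r was 0.863 with the PBS response and 0.870 with the cNSF-HA response, as a description, since genes are not independent replicates.

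**Figure D4:**
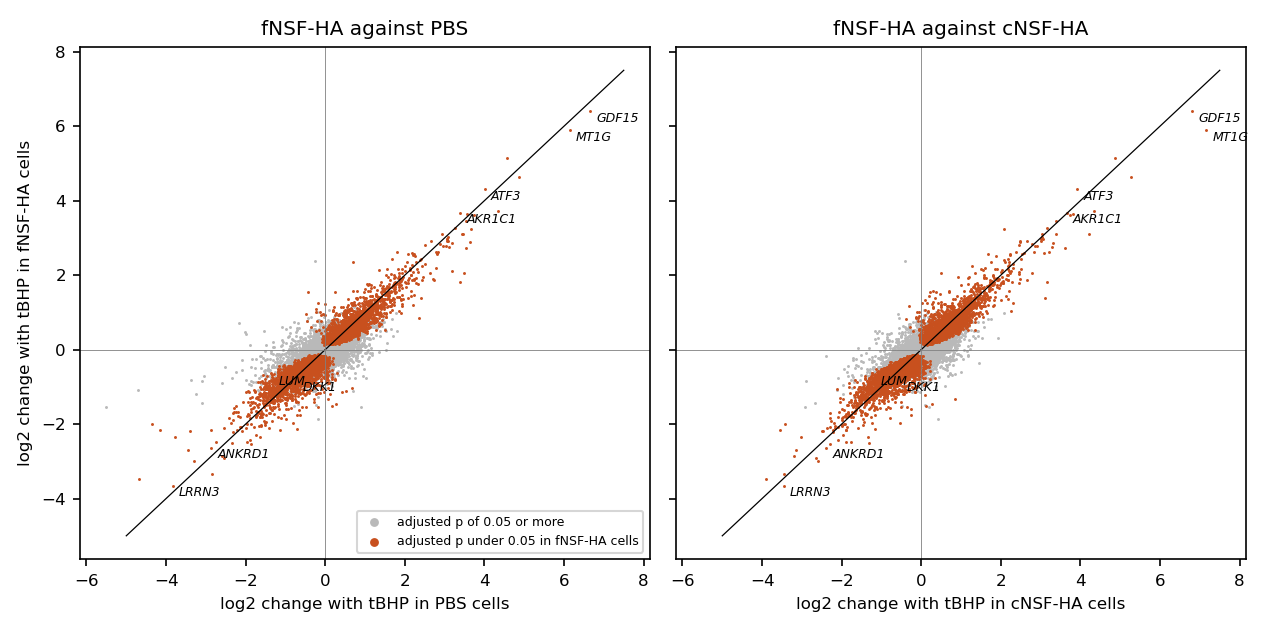
log2 change with tBHP in fNSF-HA cells (y axis) against that in PBS cells (left) and cNSF-HA cells (right) for the 13686 genes tested, with equality as a black line. Genes called in fNSF-HA cells (orange) follow the line, with Pearson's r of 0.863 and 0.870 across genes.

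In limma's test of the difference, 0 genes passed between the fNSF-HA and PBS responses and 0 between the fNSF-HA and cNSF-HA responses. With array weights, which weight each library by its agreement with its group, limma called 1042 and 971 genes. The weights of fNSF_tBHP replicates 1, 2 and 3 were 6.79, 0.102 and 0.236. That group therefore rested mostly on replicate 1 in the weighted fit. In limma without these weights, 942 (6.88%) and 533 (3.89%) genes had an unadjusted p under 0.05. Against PBS 524 were higher (3.83%) and 418 lower (3.05%). Against cNSF-HA 211 were higher (1.54%) and 322 lower (2.35%). edgeR also called 0 genes in both. DESeq2 called 6 genes against PBS and 0 against cNSF-HA, and limma without fNSF_tBHP replicate 3 called 9 and 0. The median SE of a difference from PBS was 0.178 on the log2 scale, against 0.126 for a single response. A p that misses the threshold does not show that the responses were equal.

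The responses of the main lists can be set side by side as medians. For p53 targets the median log2 change was 0.92 in fNSF-HA, 0.99 in PBS and 1.01 in cNSF-HA cells. For NRF2 targets it was 1.13, 1.22 and 1.08, and for the integrated stress response 1.37, 1.5 and 1.46. Immediate early genes had 0.51 in fNSF-HA cells against 0.86 and 0.88, with 1 of 22 at an unadjusted p under 0.05 for the difference from PBS, against 6.88% of all genes. For mitosis and G2/M the medians were -0.67, -0.72 and -0.71.

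LUM, DLX2 and DKK1 are given as members of the genes with the smallest p for a difference. None passed in limma with all libraries equally weighted and the values as deposited. Because they were picked by that p, a separation of their libraries goes with the choice and is no further evidence of a difference. LUM, lumican, a proteoglycan that spaces collagen fibrils, had 556, 540.0 and 542 normalized counts in fNSF and 395, 343 and 295 in fNSF_tBHP libraries. It had 573, 558 and 566 in PBS and 225, 224 and 225 in PBS_tBHP libraries, and 238, 223 and 265 in cNSF_tBHP libraries. The 3 fNSF_tBHP libraries were above the 6 other libraries with tBHP. The log2 response was -0.67 with fNSF-HA, -1.33 with PBS and -1.18 with cNSF-HA. The difference from PBS was 0.65 (SE 0.13, adjusted p = 0.602 from limma and 0.0307 from DESeq2). Without fNSF_tBHP replicate 3, limma gave 0.76 with an adjusted p of 0.0308.

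DLX2, a homeobox factor, had 179, 191 and 192 normalized counts in fNSF and 204, 166 and 236 in fNSF_tBHP libraries. In PBS cells it went from 148, 168 and 168 to 365, 260.2 and 346, and in cNSF-HA cells from 177, 149.5 and 199.5 to 304, 310.5 and 335. All 6 tBHP libraries of the other pre-incubations were above the 3 fNSF_tBHP libraries. The difference from PBS was -0.90 on the log2 scale (adjusted p = 0.602 from limma).

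DKK1, a secreted Wnt inhibitor, fell in each pre-incubation, from 8809.8, 8746 and 8519 to 4778, 4928 and 4884 normalized counts with fNSF-HA and from 7976, 8072 and 8217 to 5442, 5481 and 5819 with cNSF-HA. The fNSF_tBHP libraries were below and the fNSF libraries above those of cNSF-HA. The difference between these responses was -0.30 (adjusted p = 0.71 from limma), and with the GC and length trend removed it was -0.34 with an adjusted p of 0.0451. SRXN1, a low NRF2 target chosen after its values were seen, had 13.2, 17.0 and 23.9 normalized counts in the fNSF_tBHP libraries, from 11.8, 7.88 and 8.39 in the fNSF libraries. It went from 6.76, 7.46 and 12.1 to 53.3, 46.8 and 42.7 in PBS cells and from 19.1, 17.6 and 12.4 to 22.1, 27.4 and 29.5 in cNSF-HA cells. The log2 response was 0.86 with fNSF-HA, 2.35 with PBS and 0.67 with cNSF-HA. Its difference from the PBS response was -1.49 (SE 0.39, adjusted p = 0.667 from limma).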

How the data were processed

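RNA of IMR90 cells was sequenced in 18 libraries of 6 groups with 3 replicates each, grouped by their labels, and the study describes all replicates as biological. Per the labels and the authors' notes, TruSeq RNA V2 libraries were read as single ends of 100 nt, trimmed with Trimmomatic 0.32, aligned to GRCh38.p7 with STAR 2.5.2b, counted with featureCounts (Subread 1.5.0-p3) and normalized with DESeq2. The annotation is not given in the sources used here. In the deposited signal, each gene's reads have been scaled by a DESeq2 size factor per library. Whole reads were recovered for 100% of values within 0.01 of a read. The table's p-value, q-value and rank columns hold a comparison of the authors and were not used.

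The log2(value + 1) of the 13686 genes with a mean of at least 10 was fitted with limma 3.58.1 in R 4.3.3 (1 coefficient per group, all 18 libraries, mean-variance trend, two-sided, Benjamini-Hochberg adjustment over all genes tested, threshold 0.05). SE is the moderated standard error. Every adjusted p is limma's unless another tool is named. Differences between responses were tested as interactions. Gene lists, members and tests were chosen with earlier results of these data known. Lists can share members, such as SLC7A11 (NRF2 targets and integrated stress response) and SQSTM1 (NRF2 targets and autophagy). Named genes were the 15 largest rises and falls with a mean of at least 100, up to 4 risen and 4 fallen genes per list, a set list of stress, cell-cycle and hyaluronan genes, and the smallest p-values of each interaction. Further list members (ASNS, CALR, CANX, CAT, CCNB2, CHAC1, CRELD2, DDB2, FTH1, FTL, GCLC, HSP90B1, JUNB, MT2A, PLK1, PSAT1, VCAN and XPC) were named after their values were seen, and some named genes are not reported here. Alternatives were edgeR 4.0.16 (quasi-likelihood test) and DESeq2 1.42.0 on the recovered reads, other pseudocounts, filters and scalings, array weights, removal of a GC and length trend (GENCODE transcripts, 12528 genes), a replicate block, only the 6 fNSF-HA libraries, and each of them left out. The fits were tested on simulated data. Promoters are those of RefSeq on GRCh38.p14. An older symbol was matched through the RefSeq synonyms.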

Additional observations from a re-analysis of the deposited data

How the results depend on the processing

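Of the 310 named genes tested, 297 passed the threshold, and all 297 kept their sign under every alternative run. 259 of them passed under every alternative and 38 lost the call under at least 1, most often in the fit of only the 6 fNSF-HA libraries (30). HAS2, not called, changed sign with the GC and length trend removed, to 0.13 with an adjusted p of 0.017. Array weights, which gave most weight to fNSF_tBHP replicate 1, raised the response to 4779 risen and 5014 fallen genes and the differences between responses to 1042 genes against PBS and 971 against cNSF-HA. DESeq2 called 6 genes against PBS (LUM, CETN3, HAT1, AMIGO2 and PNPT1 higher, HOXA3 lower), and the fit with the GC and length trend removed called 1 against cNSF-HA, DKK1. The cause of these changes was not tested.

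With each of the 6 libraries left out, risen genes ranged from 2140 to 3340, fallen genes from 2561 to 3590, and the difference from PBS from 0 to 9 genes. The 9, called without fNSF_tBHP replicate 3, were HAT1, LUM, CETN3, PIBF1 and LRRC17 higher and ZBTB7A, MEGF6, MED25 and HOXA3 lower. The difference from cNSF-HA stayed at 0 genes. The correlations of same-numbered deviations between the groups were 0.015, 0.10 and 0.031. Those of different numbers ran from -0.11 to 0.080. Whether the replicate numbers pair the groups cannot be told from values this small. With a replicate block, 2703 genes rose and 3241 fell. A scaling by TMM moved the median of all genes from -0.03 to 0.03 and gave 3178 risen and 2650 fallen genes. SRXN1 had at most 23.9 normalized counts in the 6 libraries, so a few reads move its change.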
